A study of Mus musculus with 6 samples.

Results

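Voltage-gated channel genes encode the pore-forming subunits of sodium channels (Scn genes), calcium channels (Cacna1 genes), potassium channels (Kcna, Kcnb, Kcnc, Kcnd and Kcnq genes) and hyperpolarisation-activated cation channels (Hcn genes). All protein-coding genes with these symbol roots were taken from a whole-transcriptome count table of mouse cortex, which gave 46 channel genes of 53379 genes in the table. They comprised 10 Scn, 10 Cacna1, 8 Kcna, 2 Kcnb, 4 Kcnc, 3 Kcnd, 5 Kcnq and 4 Hcn genes. Genes were taken by name, but these families were chosen with earlier results of these data known. The samples were 3 cortices labelled Npas3+/- and 3 labelled WT, all from C57BL/6 mice at post-natal day 0. Npas3 codes for a neuronal transcription factor of the bHLH-PAS family. The labels do not describe the disrupted allele, the sex of the pups, or whether a sample pooled animals, and a p-value here reflects no more than the variation among these 6 samples, part of which may be technical.

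Total counts per library lay between 67378231 and 87811574. Levels are given as CPM, the count of a gene relative to the scaled library total, so that 3 counts correspond to 0.0341 to 0.0443 CPM, and levels of different genes are compared only as CPM per kb of annotated exon. Npas3 itself had 15.0, 14.1 and 8.61 CPM in Npas3+/- cortices, against 23.4, 28.4 and 25.7 CPM in WT cortices, with a log2 fold change of −1.04 ± 0.20 (SE). Its adjusted p was 0.27 by edgeR's quasi-likelihood test and 0.000175 by DESeq2. The Xist RNA of the inactive X chromosome stood at 3667 CPM in Npas3+/- replicate 2 and at no more than 2.02 CPM in the other 5 libraries. Tissue with an inactive X was thus plain in Npas3+/- replicate 2 alone and in no WT library. The part of this imbalance in differences of X-linked genes was not tested. Cortical excitatory neuron markers summed to 1879 to 2752 CPM in Npas3+/- cortices and 1817 to 2109 CPM in WT cortices, and the muscle marker Ckm was near 0. Markers of striatal projection neurons summed to 112 to 177 CPM in Npas3+/- cortices and 118 to 295 CPM in WT cortices, and varied inside both genotypes. Markers of astrocytes and radial glia summed to 624 to 796 CPM in Npas3+/- cortices, against 961 to 1053 CPM in WT cortices, and the groups did not overlap. In bulk tissue, fewer cells of a type and less RNA per cell cannot be told apart.

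Voltage-gated channels open and close with the membrane potential. Sodium channels carry the upstroke of the action potential, potassium channels repolarise the membrane and set its excitability, and calcium channels couple depolarisation to transmitter release, gene expression and rhythmic firing. HCN channels open on hyperpolarisation and carry a depolarising current. At birth the cortex is in transition between fetal and mature channel sets, since many Kv subunits and the mature sodium channel genes come on after birth. The channel genes are spread over the genome with 4 local clusters: Scn3a, Scn2a, Scn1a, Scn9a and Scn7a lie together within 1.33 Mb of chromosome 2 (mm10 positions 65457118 to 66784914), Scn10a and Scn11a on chromosome 9, Kcna5, Kcna1 and Kcna6 on chromosome 6, and Kcna3, Kcna2 and Kcna10 on chromosome 3.

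RefSeq promoter windows, from 250 bases before to 50 bases after the start, were found for 30 of the 46 channel genes, in 39 windows (GRCm38.p6). They were searched for ACGTG, the core of the site that bHLH-PAS factors bind with their partner, and for CACGTG, the E-box that contains it, both on either strand. ACGTG occurred in 2 of the 39 channel gene windows (5.13%), those of Cacna1c and Kcna6, and in 19.6% of all 32817 windows in the table. CACGTG occurred in 0 of the 39 channel gene windows and in 7.15% of all windows. A match is only a match of letters, and its absence says only that these letters are not in the window. The windows of 3 channel genes described below, each of which differed by genotype at an unadjusted p under 0.05, are shown as examples. Cacna1f also differed at that level, and its window, without ACGTG, is not shown. Capitals mark the reverse complement of ACGTG, which starts 8 bases before the start of Kcna6.
Kcna6, chr6:126740625-126740924, minus strand: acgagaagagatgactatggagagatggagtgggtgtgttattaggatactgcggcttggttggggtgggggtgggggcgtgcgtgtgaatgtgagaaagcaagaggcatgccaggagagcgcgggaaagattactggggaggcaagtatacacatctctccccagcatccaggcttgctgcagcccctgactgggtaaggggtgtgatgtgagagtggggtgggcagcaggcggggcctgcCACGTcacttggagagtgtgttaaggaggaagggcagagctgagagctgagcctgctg
Cacna1i, chr15:80286988-80287287, plus strand: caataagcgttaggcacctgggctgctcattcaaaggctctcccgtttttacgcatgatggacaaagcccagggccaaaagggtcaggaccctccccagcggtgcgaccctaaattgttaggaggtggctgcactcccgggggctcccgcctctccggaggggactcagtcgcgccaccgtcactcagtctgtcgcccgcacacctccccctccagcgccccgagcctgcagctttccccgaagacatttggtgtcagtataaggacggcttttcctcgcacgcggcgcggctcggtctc
Scn1a, chr2:66440788-66441087, minus strand: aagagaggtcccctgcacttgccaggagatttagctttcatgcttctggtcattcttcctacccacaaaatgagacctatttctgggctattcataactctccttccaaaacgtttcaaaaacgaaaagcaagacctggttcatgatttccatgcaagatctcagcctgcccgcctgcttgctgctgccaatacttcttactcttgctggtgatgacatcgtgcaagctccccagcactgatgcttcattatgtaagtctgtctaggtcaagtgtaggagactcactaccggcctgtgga

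Of the 46 channel genes, 42 had enough counts to be tested and 37 of these averaged at least 1 CPM. The untested genes were Kcna7, Kcna10, Scn4a and Scn11a, of which Kcna10 had no count in any library and Kcna7 and Scn4a had counts in 1 library each. The highest level per length was that of the T-type calcium channel gene Cacna1h, at 24.1 CPM per kb over the 6 libraries. It was followed by the N-type calcium channel gene Cacna1b at 21.8, Cacna1g at 18.04, Scn2a at 17.9, Scn3a at 16.7 and Hcn3 at 15.7 CPM per kb. Summed over a family, the Cacna1 genes stood at 111 CPM per kb in Npas3+/- and 99.2 CPM per kb in WT cortices, the highest of the 8 families. Genes of muscle and peripheral neurons (Scn4a, Scn10a, Scn11a, Cacna1s, Kcna7) were at or below 1.17 CPM in each of the 6 libraries.

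**Figure D1:**
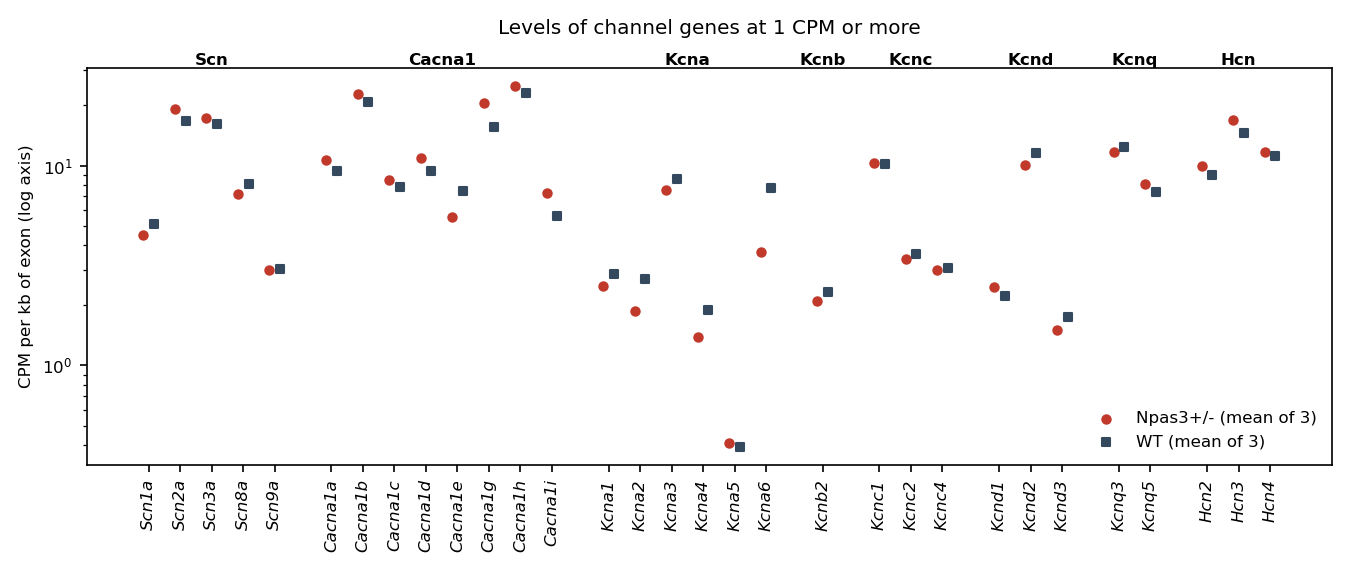
Level of 31 channel genes that averaged at least 1 CPM, as CPM per kb of exon on a log axis, by family; each point is the mean of 3 libraries (red circles Npas3+/-, blue squares WT). The points of the 8 Cacna1 genes shown lie between 5.52 and 25.0 CPM per kb, and those of the 6 Kcna genes at or below 8.56 CPM per kb.

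No channel gene passed the adjusted threshold of 0.05 in edgeR's quasi-likelihood test (0 of 42), where 8 of 21244 genes tested (0.0377%) did. limma-voom also called 0 channel genes, against 0.0424% of all genes. DESeq2 called 3 of 36 channel genes with an adjusted p, among them Cacna1g and Hcn3, which were higher in Npas3+/-, against 3.4% of all 15051 genes with an adjusted p. At an unadjusted p under 0.05, 11 channel genes (26.2%) differed in the edgeR fit, against 12.1% of all genes. Of these, 7 (16.7%) were higher in Npas3+/- cortices, against 6.29% of all genes, and 4 (9.52%) were lower, against 5.84% of all genes. The number of lower genes depended on single libraries: it was 8 without WT replicate 3 and 2 without Npas3+/- replicate 1, WT replicate 1 or WT replicate 2. Members of a family share cells and libraries and are not replicates, so these shares are descriptions.

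In 13 channel genes (31.0%) the 3 Npas3+/- values lay wholly to one side of the 3 WT values, against 18.9% of all genes tested. There were 9 with all Npas3+/- values higher (21.4%, against 9.7% of all genes), among them Cacna1a, Cacna1c, Cacna1d, Cacna1f, Cacna1g, Cacna1h, Cacna1i and Hcn3. The 4 with all Npas3+/- values lower (9.52%, against 9.18% of all genes) included Scn1a, Kcnd3 and Kcnq1, a share near that of all genes. Over all 42 tested channel genes the log2 fold change was above 0 in 22 (52.4%, against 48.2% of all genes) and its median was 0.02, against −0.01 over all genes.

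By family, calcium channel genes mostly lay above 0 and Kcna genes mostly below it. The log2 fold change was above 0 in 9 of 10 Cacna1 genes (median 0.20), in 3 of 4 Hcn genes (median 0.10), in 3 of 5 Kcnq genes (median 0.01), in 2 of 4 Kcnc genes (median −0.01) and in 3 of 8 Scn genes (median −0.09). It was above 0 in 1 of 3 Kcnd genes (median −0.20) and in 1 of 6 Kcna genes (median −0.33). Fold changes in these libraries also moved with base composition, with a median of −0.08 for the most AT-rich of 5 equal bins of exonic GC content and 0.07 for the most GC-rich bin. With an offset for GC content in the fit the median was 0.17 for Cacna1, −0.34 for Kcna, 0.002 for Hcn and −0.15 for Kcnd. With the striatal marker score of each library as a covariate it was 0.15 for Cacna1, −0.18 for Kcna, 0.15 for Hcn and −0.06 for Kcnd. That score was −1.16, −1.27 and 0.455 in Npas3+/- libraries and 1.10, 1.45 and −0.570 in WT libraries, so it partly followed genotype. A p missed with the score in the model therefore does not show that striatal content accounts for a difference.

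**Figure D2:**
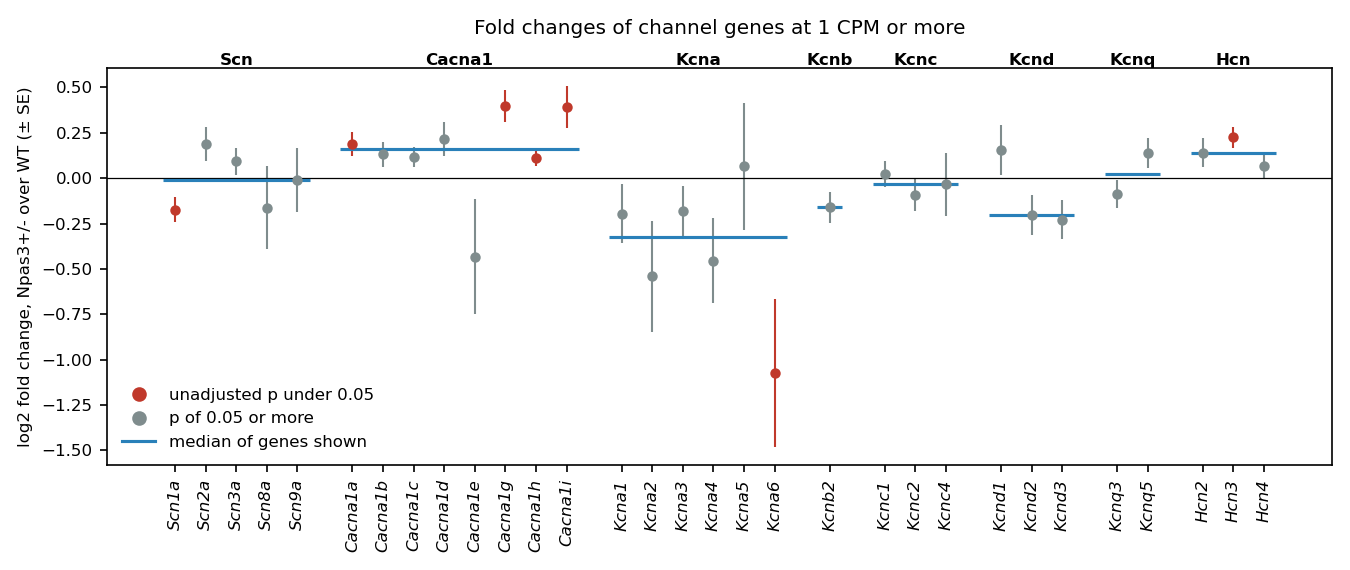
Fitted log2 fold change (Npas3+/- over WT; bars, SE) of 31 channel genes that averaged at least 1 CPM, by family; red marks an unadjusted p under 0.05 and blue lines the median of the genes shown. In the Cacna1 family 7 of the 8 genes shown lie above 0, and in the Kcna family 5 of 6 lie below 0.

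Among the neuronal sodium channel genes, Scn2a and Scn3a had the highest levels, and Scn1a was the member with the smallest p. Scn2a codes for the channel that carries most sodium current of young excitatory neurons, and Scn3a for the one typical of the fetal cortex. Scn2a (chromosome 2, 65620771 to 65767447) had 251, 257 and 222 CPM in Npas3+/- cortices, against 239.9, 209 and 192 CPM in WT cortices. Scn3a had 215, 233 and 195 CPM in Npas3+/- cortices, against 212, 193 and 198 CPM in WT cortices. The genotypes overlapped in both genes, with log2 fold changes of 0.19 ± 0.09 for Scn2a and 0.09 ± 0.07 for Scn3a (SE; adjusted p 0.471 and 0.666, edgeR).

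The ratio of Scn2a to Scn3a per kb of exon, which follows the exchange of the fetal for the later channel gene, was 1.14, 1.08 and 1.11 in Npas3+/- cortices, against 1.11, 1.06 and 0.948 in WT cortices. The log2 ratio differed by 0.10 (exact two-sided permutation p = 0.2; Benjamini-Hochberg 0.2 over 2 ratios computed), where 3 against 3 cannot give less than 0.1. With 1 library left out the difference ranged over 0.036 to 0.147, and a test of this size cannot show whether the ratio differed.

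Scn1a, the channel gene of mature and particularly of inhibitory neurons, had 50.5, 50.3 and 49.8 CPM in Npas3+/- cortices, against 57.4, 59.8 and 52.9 CPM in WT cortices. All Npas3+/- libraries were below all WT libraries, but the difference was small, at a log2 fold change of −0.17 ± 0.07 (SE, adjusted p = 0.375 by edgeR). It was −0.12 both with the GC offset and with the striatal score in the model, and then missed an unadjusted p of 0.05. Scn1a kept an unadjusted p under 0.05 in 1 of the 6 edgeR fits that each left out 1 library. Interneuron markers summed to 484 to 614 CPM in Npas3+/- cortices and 586 to 725 CPM in WT cortices, with 4 of 10 lower and 1 of 10 higher at an unadjusted p under 0.05, against 5.84% and 6.29% of all genes. Their part in the Scn1a difference was not tested.

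Scn8a, which codes for the main channel of mature axon initial segments, had 132, 136 and 71.7 CPM in Npas3+/- cortices, against 111, 138 and 131.5 CPM in WT cortices, so that 1 Npas3+/- library stood apart. Scn9a, best known from sensory neurons, averaged 38.4 ± 1.34 CPM in Npas3+/- and 38.7 ± 10.5 CPM in WT cortices (SD, n = 3 each). Scn10a, a gene of sensory neurons, had 0, 0 and 17 counts in Npas3+/- cortices, against 46, 98 and 4 counts in WT cortices, and Scn7a had at most 0.432 CPM in any library. Neither passed the threshold (adjusted p 0.477 and 0.685, edgeR), and the Scn10a counts varied widely inside both genotypes.

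The calcium channel genes were the family in which most members stood higher in Npas3+/- cortices. At an unadjusted p under 0.05, 5 of the 10 Cacna1 genes were higher and 0 were lower, against 6.29% and 5.84% of all genes. The count was 3 higher and 0 lower with the GC offset, and 2 higher and 1 lower with the striatal score. In 7 of 10 every Npas3+/- library was above every WT library, against 9.7% of all genes. The 3 T-type genes, Cacna1g, Cacna1h and Cacna1i, code for low-threshold channels that support burst firing and calcium entry near rest, and all 3 were among the 5. Summed, they stood at 515, 545 and 513 CPM in Npas3+/- cortices, against 452, 428 and 437 CPM in WT cortices, a log2 ratio of 0.26 between the means of 524 ± 17.6 and 439 ± 12.3 CPM (SD, n = 3 each). The other 7 Cacna1 genes summed to 806 ± 32.5 CPM in Npas3+/- and 786 ± 84.3 CPM in WT cortices, and without Cacna1e to 666 ± 31.2 CPM in Npas3+/- and 598 ± 18.7 CPM in WT cortices (log2 ratio 0.15).

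Cacna1g (ENSMUSG00000020866, chromosome 11, 94408391 to 94474198) had 187, 236 and 200.3 CPM in Npas3+/- cortices, against 165, 151 and 158 CPM in WT cortices. Every Npas3+/- library was above every WT library, and the fitted log2 fold change was 0.40 ± 0.09 (SE; adjusted p = 0.272 by edgeR, adjusted p = 0.0116 by DESeq2). It remained at an unadjusted p under 0.05 in all 6 edgeR fits that each left out 1 library, with the GC offset (0.32) and with the striatal score (0.36).

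Cacna1i (ENSMUSG00000022416, chromosome 15, 80287238 to 80398279), whose promoter window is printed above, had 77.3, 71.1 and 67.9 CPM in Npas3+/- cortices, against 65.0, 51.4 and 48.5 CPM in WT cortices. The groups did not overlap, although the lowest Npas3+/- value and the highest WT value were close. The log2 fold change was 0.39 ± 0.12 (SE; adjusted p = 0.29 by edgeR), and 0.31 with the GC offset. Cacna1h had 250.2, 238 and 245 CPM in Npas3+/- cortices, against 222, 225 and 231 CPM in WT cortices. Its log2 fold change of 0.11 ± 0.05 (SE, adjusted p = 0.386 by edgeR) was 0.02 with the GC offset, so this difference depended on whether base composition was modelled. Cacna1h kept an unadjusted p under 0.05 in 2 of the 6 edgeR fits that each left out 1 library.

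Among the high-threshold genes, Cacna1a, which codes for the P/Q-type channel of presynaptic terminals, had 122, 127 and 117 CPM in Npas3+/- cortices, against 99.8, 110.6 and 110.8 CPM in WT cortices. On the log2 scale the difference was 0.19 ± 0.06 (SE; adjusted p = 0.332 by edgeR) and 0.11 with the GC offset and 0.13 with the striatal score, where it missed an unadjusted p of 0.05. Cacna1a kept an unadjusted p under 0.05 in 4 of the 6 edgeR fits that each left out 1 library. The N-type gene Cacna1b had 235, 229.8 and 215 CPM in Npas3+/- cortices, against 218, 214 and 189.7 CPM in WT cortices, and the groups overlapped (log2 fold change 0.13 ± 0.07). The L-type genes Cacna1c and Cacna1d, which link depolarisation to gene expression, averaged 179 ± 8.61 and 137 ± 15.0 CPM in Npas3+/- cortices, against 165 ± 6.48 and 118 ± 10.6 CPM in WT cortices (SD, n = 3 each). Neither passed an unadjusted p of 0.05 (0.0771 and 0.0571, edgeR), although their groups did not overlap.

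The retinal L-type gene Cacna1f was low, with 55, 55 and 35 counts in Npas3+/- cortices, against 10, 25 and 15 counts in WT cortices. On the log2 scale the difference was 1.45 ± 0.47 (SE; adjusted p = 0.32 by edgeR), at no more than 0.715 CPM in any library. With the striatal score the log2 fold change moved little, to 1.33, while the unadjusted p by edgeR went from 0.0158 to 0.101. The muscle gene Cacna1s had 33, 8 and 0 counts in Npas3+/- cortices, against 13, 12 and 4 counts in WT cortices. The skeletal muscle markers summed to 3.22 to 4.56 CPM in Npas3+/- and 3.23 to 4.93 CPM in WT cortices.

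**Figure D3:**
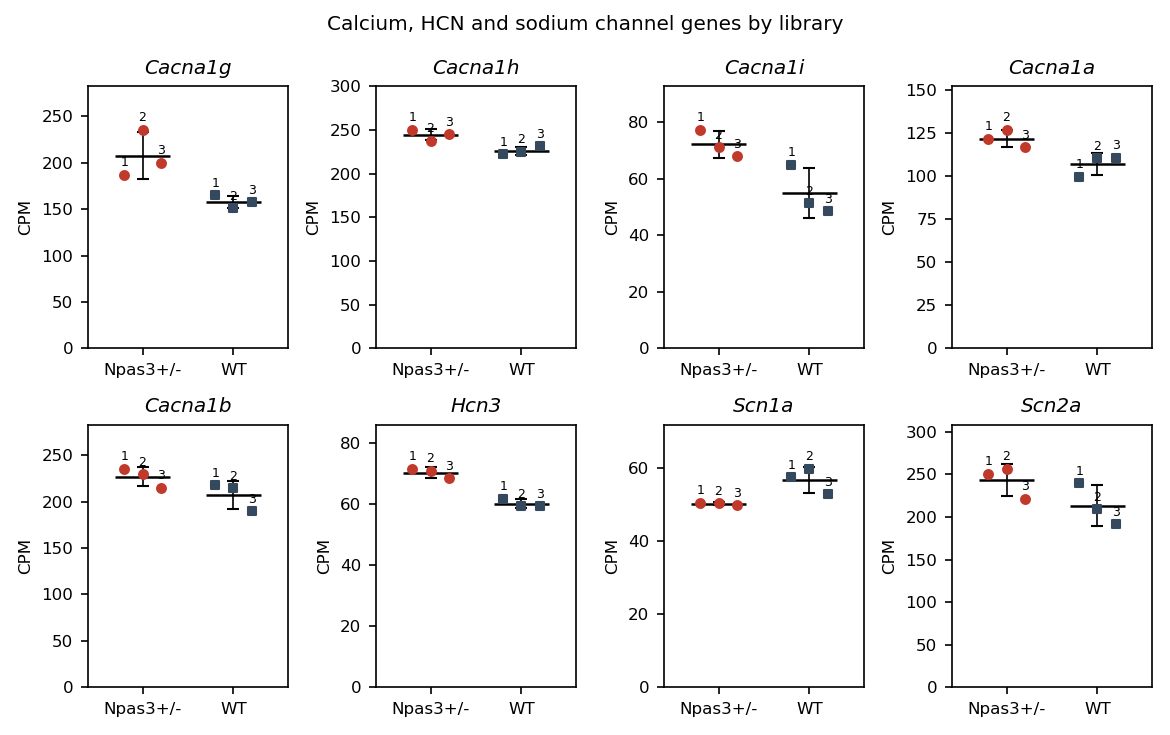
Levels in CPM of 8 calcium, HCN and sodium channel genes in each library (red circles Npas3+/-, blue squares WT; numbers, replicates; line, mean; bar, SD). The Cacna1g, Cacna1h, Cacna1i, Cacna1a and Hcn3 points of Npas3+/- all lie above those of WT, the Scn1a points all lie below, and the Cacna1b and Scn2a points overlap.

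Potassium channels of the Kcna family (Kv1), which set firing threshold in axons, had the lowest family median. Their summed level was 69.9, 86.2 and 78.4 CPM in Npas3+/- cortices, against 126, 145 and 83.6 CPM in WT cortices. Npas3+/- replicate 2 was thus above WT replicate 3. Of the mean sums of 78.2 CPM in Npas3+/- and 118 CPM in WT cortices, Kcna6 alone made up 21.9 and 46.0 CPM. The striatal markers followed a similar order in WT libraries, at 245, 295 and 118 CPM, but not in Npas3+/- libraries, at 112, 129 and 177 CPM. Their part in the Kcna levels was not tested, beyond the fits with the striatal score. Kcna3, best known from lymphocytes and microglia and also present in neurons, had the highest level per length of the family and Kcna6 the next. Kcna3 had 13.1, 13.5 and 16.5 CPM in Npas3+/- cortices, against 14.0, 17.5 and 17.4 CPM in WT cortices (log2 fold change −0.18 ± 0.14, SE).

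Kcna6 (ENSMUSG00000038077, chromosome 6, 126708329 to 126740674) had 22.5, 23.3 and 19.9 CPM in Npas3+/- cortices, against 58.6, 61.7 and 17.6 CPM in WT cortices. Its WT libraries split into a high pair and a single low value that lay under all Npas3+/- values. The log2 fold change was −1.07 ± 0.41 (SE; adjusted p = 0.37 by edgeR). It was −1.46 with an adjusted p of 0.0121 by edgeR without WT replicate 3, and −0.25, past no threshold, with the striatal score in the model. Kcna6 shares 2355 exonic bases with the antisense gene Gm26673, which stood at 1.32 CPM in WT replicate 3 and at no more than 0.225 CPM elsewhere. Since no source used here says whether strand was counted, reads of the overlap cannot be told apart. The neighbouring Kcna1, a gene of axonal Kv1 channels, had 13.2, 12.3 and 10.3 CPM in Npas3+/- cortices, against 10.8, 15.0 and 15.1 CPM in WT cortices.

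Kcna2, the usual partner of Kcna1 subunits in myelinated axons, had 12.4, 31.0 and 23.1 CPM in Npas3+/- cortices, against 32.0, 38.3 and 26.3 CPM in WT cortices. The groups overlapped, and the log2 fold change of −0.54 ± 0.30 (SE) had an adjusted p of 0.531 by edgeR. Kcna4, which codes for a rapidly inactivating subunit, averaged 6.68 ± 1.25 CPM in Npas3+/- and 9.15 ± 2.42 CPM in WT cortices (SD, n = 3 each), with an adjusted p of 0.487 by edgeR. Kcna5, known from heart and vessels, stayed between 0.697 and 1.49 CPM over the 6 libraries.

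The Kcnb (Kv2), Kcnc (Kv3) and Kcnd (Kv4) families had no member at an unadjusted p under 0.05. Kcnb2, a delayed rectifier subunit, averaged 31.7 ± 1.48 CPM in Npas3+/- and 35.5 ± 2.54 CPM in WT cortices (SD, n = 3 each). Its log2 fold change was −0.16 ± 0.08 (SE), with an adjusted p of 0.493 by edgeR. Kcnc1, a subunit of fast-spiking neurons, had 101, 91.7 and 99.3 CPM in Npas3+/- cortices, against 88.5, 97.0 and 102 CPM in WT cortices. The log2 fold change of Kcnc1 was 0.02 ± 0.07 (SE), and −0.05 with the GC offset. Kcnc2, its partner in interneurons, averaged 24.2 ± 2.02 CPM in Npas3+/- and 25.8 ± 0.657 CPM in WT cortices, and Kcnc4 11.0 ± 0.631 CPM in Npas3+/- and 11.3 ± 2.71 CPM in WT cortices (SD, n = 3 each).

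The Kcnd genes encode the A-type current of dendrites. Kcnd2 had 56.0, 45.1 and 54.0 CPM in Npas3+/- cortices, against 59.3, 65.9 and 53.2 CPM in WT cortices, and the groups overlapped (log2 fold change −0.20 ± 0.11, SE). Kcnd3 had 12.8, 15.1 and 15.2 CPM in Npas3+/- cortices, against 15.9, 17.7 and 16.9 CPM in WT cortices. All its Npas3+/- values were lower, with an adjusted p of 0.449 by edgeR. Kcnd1 averaged 13.1 ± 1.30 CPM in Npas3+/- and 11.7 ± 1.70 CPM in WT cortices (SD, n = 3 each).

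Kcnq genes other than Kcnq1 encode M-current channels, which damp repetitive firing, and Kcnq3 is a main forebrain subunit. Kcnq3 had 159.5, 179.8 and 175 CPM in Npas3+/- cortices, against 182, 199 and 167 CPM in WT cortices, with a log2 fold change of −0.09 ± 0.08 (SE) and an adjusted p of 0.705 by edgeR. Its genotypes overlapped.

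Kcnq1, a cardiac and epithelial gene, was low, with 20, 37 and 34 counts in Npas3+/- cortices, against 55, 102 and 98 counts in WT cortices. All Npas3+/- libraries were below all WT libraries, and the log2 fold change was −1.55 ± 0.41 (SE; adjusted p = 0.276 by edgeR). It was −1.61 with the GC offset and −1.59 with the striatal score. Kcnq1 shares 121 exonic bases with the antisense imprinted RNA Kcnq1ot1, which stood at 29.7, 32.7 and 29.5 CPM in Npas3+/- cortices, against 36.0, 30.1 and 30.9 CPM in WT cortices. Kcnq1 counts may hold antisense reads, and their share cannot be told apart. Kcnq5, which is broadly expressed in brain, averaged 62.2 ± 4.29 CPM in Npas3+/- and 56.5 ± 4.28 CPM in WT cortices (SD, n = 3 each).

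Of the HCN genes, Hcn3, which codes for a slowly activating subunit, stood higher in Npas3+/- cortices, with no overlap between genotypes. Hcn3 (ENSMUSG00000028051, chromosome 3, 89146074 to 89160196) had 71.7, 71.1 and 68.6 CPM in Npas3+/- cortices, against 61.9, 59.3 and 59.5 CPM in WT cortices. The difference was small beside a tight spread, with a log2 fold change of 0.23 ± 0.06 (SE; adjusted p = 0.276 by edgeR, adjusted p = 0.0492 by DESeq2), and 0.15 with the GC offset. Hcn3 shares 711 exonic bases with the antisense gene Pklr, which was at or below 0.613 CPM in all 6 libraries.

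Hcn4 codes for the pacemaker subunit of the heart and is also present in brain. Hcn4 had 67.9, 71.0 and 75.0 CPM in Npas3+/- cortices, against 66.3, 72.5 and 65.8 CPM in WT cortices, and Hcn2 averaged 31.7 ± 2.16 CPM in Npas3+/- and 28.7 ± 0.811 CPM in WT cortices (SD, n = 3 each).

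Several channel genes differed widely between libraries of 1 genotype. Among channel genes at 10 CPM or more, 4 of 34 (11.8%) spanned at least 2-fold inside a genotype, among them Kcna6, Kcna2 and Cacna1e, against 3.46% of all genes at that level. Cacna1e, the R-type calcium channel gene, had 133, 145 and 140.4 CPM in Npas3+/- cortices, against 126, 133 and 306 CPM in WT cortices. WT replicate 3 alone stood apart, and the log2 fold change of −0.43 ± 0.32 (SE) became 0.11 without it (adjusted p = 0.64 with that library and 0.562 without, both by edgeR). Cacna2d1, which codes for an auxiliary subunit of high-threshold calcium channels and was singled out after its values were seen, had 98.2, 118 and 107 CPM in Npas3+/- cortices, against 106, 109 and 256 CPM in WT cortices. WT replicate 3 was therefore high in both genes. In Kcna6 it was WT replicates 1 and 2 that were high, and in Scn8a Npas3+/- replicate 3 that was low. A cause of these single-gene jumps was not tested.

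**Figure D4:**
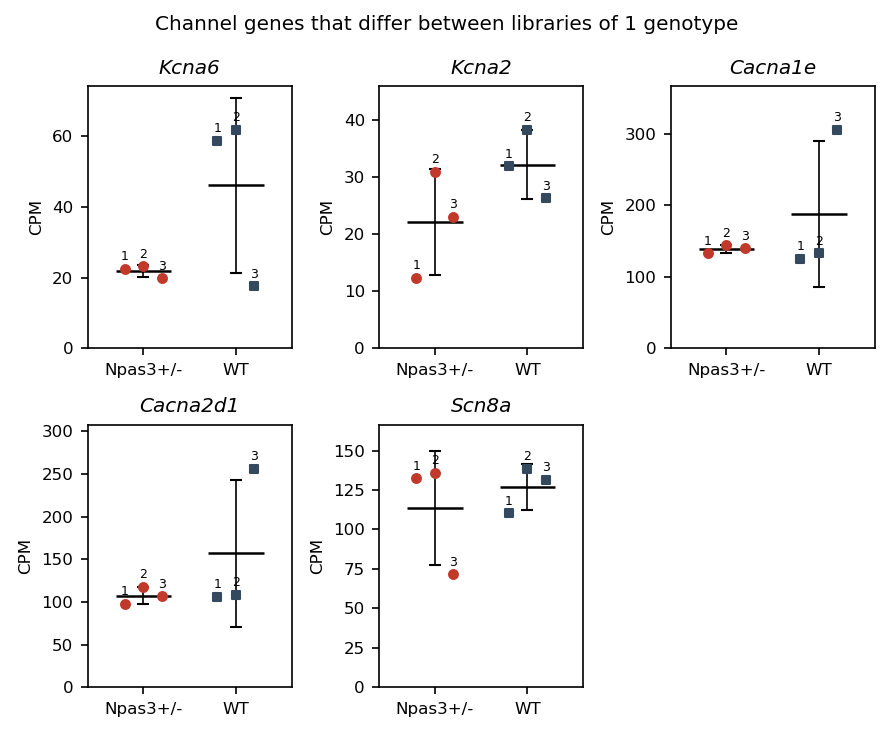
Levels in CPM of 5 genes whose libraries differ inside a genotype (red circles Npas3+/-, blue squares WT; numbers, replicates; line, mean; bar, SD). Kcna6 is high in WT 1 and WT 2, Cacna1e and Cacna2d1 are high in WT 3, Scn8a is low in Npas3+/- 3, and Kcna2 is lowest in Npas3+/- 1.

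The genes that assemble with or anchor these channels were read from 4 lists of 58 genes, of which 57 were in the table and 53 were tested. None passed the adjusted threshold in edgeR, whereas DESeq2 called 3 of 45 with an adjusted p (6.67%, against 3.4% of all genes), namely Fgf12, Cntnap2 and Sptbn4. In the edgeR fit 4 were higher and 8 lower at an unadjusted p under 0.05 (7.55% and 15.1%, against 6.29% and 5.84% of all genes), and the median log2 fold change was −0.01. Among 31 tested auxiliary subunits, 3 were higher and 6 lower. The higher ones were the calcium channel β subunit genes Cacnb1 and Cacnb3, which bring Cacna1 subunits to the membrane, and the sodium channel β subunit gene Scn2b. Cacnb3 had 305, 294 and 279 CPM in Npas3+/- cortices, against 257, 235 and 254 CPM in WT cortices, with a log2 fold change of 0.24 ± 0.06 (SE; adjusted p = 0.276 by edgeR). Cacnb1 had 103, 103 and 96.0 CPM in Npas3+/- cortices, against 89.6, 85.6 and 80.9 CPM in WT cortices, with the same log2 fold change of 0.24 ± 0.06 (SE). In both genes all Npas3+/- libraries were above all WT libraries. With the GC offset the log2 fold changes were 0.14 for Cacnb3 and 0.15 for Cacnb1, and both missed an unadjusted p of 0.05.

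The 6 lower auxiliary genes were Cacnb2, Cacna2d3, Fgf12, Fgf13, Kcnip4 and Dpp6. The intracellular sodium channel regulator Fgf12 had 33.4, 31.5 and 33.6 CPM in Npas3+/- cortices, against 44.4, 47.7 and 36.8 CPM in WT cortices. On the log2 scale the difference was −0.39 ± 0.10 (SE), with an adjusted p of 0.276 by edgeR and 0.0388 by DESeq2. With the striatal score it was −0.23 and missed an unadjusted p of 0.05. Kcnip4 and Dpp6 encode partners of the Kcnd channels. Kcnip4 had 10.7, 11.0 and 11.3 CPM in Npas3+/- cortices, against 14.2, 14.2 and 13.2 CPM in WT cortices, and the log2 fold changes were −0.33 for Kcnip4 and −0.26 for Dpp6. With the striatal score they were −0.27 and −0.08, and both missed an unadjusted p of 0.05. Of the other Kcnd partners listed, Kcnip2 had a log2 fold change of 0.18, Dpp10 of 0.05, Kcnip1 of −0.07 and Kcnip3 of −0.04.

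Among the 6 anchors and regulators, Sptbn4 was higher and Cntnap2 and Rest were lower at an unadjusted p under 0.05, against 6.29% and 5.84% of all genes. Sptbn4 codes for the βIV-spectrin that holds sodium channels at the axon initial segment. It had 249, 227 and 227 CPM in Npas3+/- cortices, against 197, 194 and 187 CPM in WT cortices, with a log2 fold change of 0.28 ± 0.05 (SE; adjusted p = 0.27 by edgeR and 0.00932 by DESeq2), and 0.17 with the GC offset. Cntnap2, which clusters Kv1 channels next to nodes of Ranvier, had 45.0, 39.8 and 47.6 CPM in Npas3+/- cortices, against 57.0, 77.0 and 52.9 CPM in WT cortices, with a log2 fold change of −0.50 ± 0.15 (SE; adjusted p = 0.288 by edgeR and 0.0365 by DESeq2). With the striatal score it was −0.27 and missed an unadjusted p of 0.05. Rest, the repressor of neuronal genes that include sodium channel genes, had 16.4, 16.4 and 16.3 CPM in Npas3+/- cortices, against 17.6, 19.1 and 20.8 CPM in WT cortices, with a log2 fold change of −0.23 ± 0.09 (SE, adjusted p = 0.399 by edgeR), and with the GC offset it missed an unadjusted p of 0.05. None of the 8 tested electrically silent Kv subunits and none of the 8 Kcnh genes reached an unadjusted p of 0.05. The smallest p values were those of Kcng1 (0.066), Kcng3 (0.32) and Kcns2 (0.395) among the silent subunits, and of Kcnh8 (0.0895), Kcnh6 (0.0938) and Kcnh4 (0.145) among the Kcnh genes.

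**Figure D5:**
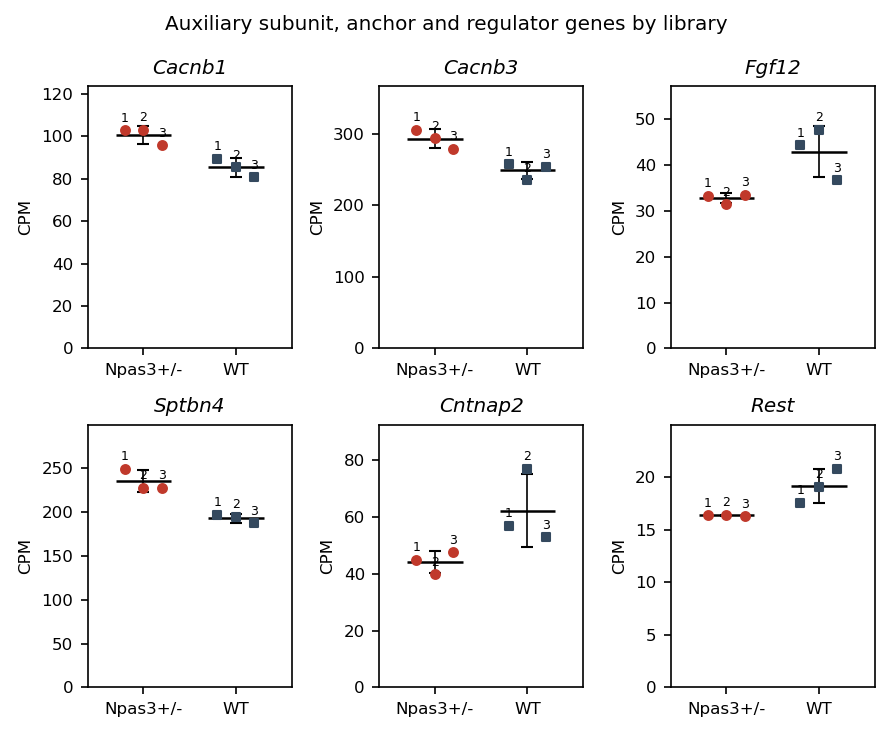
Levels in CPM of 6 auxiliary subunit, anchor and regulator genes in each library (red circles Npas3+/-, blue squares WT; numbers, replicates; line, mean; bar, SD). Cacnb1, Cacnb3 and Sptbn4 lie wholly higher in Npas3+/- and Fgf12, Cntnap2 and Rest wholly lower.

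Markers of the remaining cell types were also summed in each library. Oligodendrocyte lineage markers summed to 253.6 to 271.7 CPM in Npas3+/- and 226.8 to 253.5 CPM in WT cortices, close but without overlap. At an unadjusted p under 0.05, 2 of 6 were higher and 0 lower, against 6.29% and 5.84% of all genes. The number higher was 1 with the GC offset and 2 with the striatal score. Endothelial markers summed to 112 to 113 CPM in Npas3+/- and 108 to 115 CPM in WT cortices, mural cell markers to 80.0 to 93.8 CPM in Npas3+/- and 90.4 to 97.9 CPM in WT cortices, and microglial markers to 16.2 to 27.7 CPM in Npas3+/- and 22.9 to 27.5 CPM in WT cortices. Thalamic markers summed to 73.6 to 81.4 CPM in Npas3+/- and 86.5 to 99.8 CPM in WT cortices, without overlap, with Gbx2 near 0 and the signal mostly from Slc17a6 and Prkcd. All 8 astrocyte and radial glia markers were lower at an unadjusted p under 0.05, against 5.84% of all genes, with a median log2 fold change of −0.49, and 3 of 8 were with the striatal score in the model. Among 7 excitatory neuron markers, 2 were higher and 0 lower at an unadjusted p under 0.05, against 6.29% and 5.84% of all genes. Their median log2 fold change was 0.17, and 0 were higher with the striatal score. The part of these cell types in the channel gene differences was not tested, except that the striatal score was entered in the fits above.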

How the data were processed

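RNA was sequenced from 3 Npas3+/- and 3 WT cortices. The gene counts used here were deposited as whole-number counts, without normalization. Trimmomatic 0.3.8, HISAT2 2.1.0, featureCounts and the mm10 build are named per the submitters' processing notes; strand settings are not given in the sources used here. Gene names and exons came from GENCODE M21, matching 53274 of 53379 identifiers. The column code NP was read as Npas3+/-. Total counts were 67378231 to 87811574. The floor of 3 counts covers counting error only, whereas the SE and SD include differences between libraries.

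Genes passing filterByExpr (21244) were fitted with edgeR 4.0.16 in R 4.3.3 (TMM scaling, quasi-likelihood test, no covariates), with Benjamini-Hochberg adjustment over all of them and a threshold of 0.05. The SE is the log2 fold change divided by the root of F. DESeq2 1.42.0 and limma-voom (limma 3.58.1) were alternatives among 17. The labels name no pairing, and replicate numbers were not used to pair samples in the main fit. The fits were also run on simulated counts, drawn independently for each gene. These held no shift in cell content or base composition, and their outcome is not given here. The biological coefficient of variation was 26.1%.

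The channel genes and lists were chosen with earlier results of these data known. Named genes were those at an unadjusted p under 0.05, the 2 most abundant per family and length, the largest fold change per family at 1 CPM or more, 3 per related list and Npas3; other members are given to account for the rest. Some channel genes are not reported here by name; counts and the medians given cover them.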

Additional observations from a re-analysis of the deposited data

How the results depend on the processing

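Of 372 values of 22 named channel genes under alternatives, 360 kept their direction and side of the adjusted threshold, 9 reversed and 3 passed only under the alternative. No channel gene passed that threshold in the main fit, so keeping a side meant only not passing it. Loss of an unadjusted p under 0.05 was not counted, and several named genes lost it, as given above. The 8 genes called over all genes became 511 with DESeq2, 3 with the replicate block, 3 with GC offsets and the replicate block, and 5 with the striatal score; leaving out 1 library gave 7 to 16. The 0 channel genes called became 3 with DESeq2 and 0 to 1 with 1 library left out. Channel genes at an unadjusted p under 0.05 were 4 higher and 2 lower with the striatal score, and 5 to 10 higher and 2 to 8 lower with 1 library left out. Of the 4 related lists together, 4 were higher and 8 lower; with the striatal score 2 were lower, with the replicate block 5, with GC offsets and the replicate block 4, with GC offsets 2 were higher, and with 1 library left out 3 to 9 were lower and 4 to 5 higher. The Cacna1 median was 0.16 with limma-voom, 0.15 at 1 CPM in 3 libraries, 0.15 with the striatal score, 0.11 with GC offsets and the replicate block, and 0.15 to 0.24 with 1 library left out. The Hcn median was 0.0017 with GC offsets and 0.0013 with the replicate block added. The Kcnc and Kcnd medians were 0.070 and −0.061 with the striatal score, and the Kcnq median was 0.068 at 1 CPM. With 1 library left out, medians ranged over −0.15 to 0.039 (Scn), −0.41 to −0.21 (Kcna), −0.07 to 0.05 (Kcnc), −0.23 to −0.11 (Kcnd), −0.031 to 0.077 (Kcnq) and 0.09 to 0.14 (Hcn). Reversed log2 fold changes were Kcnc1 (−0.046 with GC offsets, −0.045 with the replicate block added, −0.0047 with the striatal score), Kcnq3 (0.0082) and Kcns2 (0.069) with the striatal score, Hcn4 (−0.0099 with GC offsets, −0.0090 with the replicate block added), and, with 1 library left out, Cacna1e (−0.65 to 0.11) and Kcnc1 (−0.031 to 0.072). The cause was not tested. Same-numbered libraries had correlations of 0.04, −0.03 and −0.09 in their deviations, which cannot show whether same-numbered samples were handled together. The lowest tested channel genes named, Cacna1f, Cacna1s, Scn7a, Scn10a and Kcnq1, were at or below 1.37 CPM in each library, where counting error is largest.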
